A study of Mus musculus with 3 samples.

Results

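The genes described here are mouse genes that type I interferon switches on. Of a list of 39 symbols, 38 each had exactly 1 row among the 32286 genes measured, and Mx2 had none. They were read in cells from bronchoalveolar lavage, sorted for CD11b or CD11c, in 3 droplet libraries that count the 3′ ends of transcripts as unique molecules (UMIs). All mice received bleomycin, a drug used in mice to provoke lung damage and scarring, into the airway 14 days before lavage. The first library came from wild-type mice given DMSO (WT DMSO), the second from wild-type mice given GW5074 (WT GW5074), a small molecule, and the third from Clec7a knockout mice given DMSO (KO DMSO). Clec7a encodes a C-type lectin receptor for fungal beta-glucan. Lavage fluid was pooled over the mice of a group, so each group is 1 library, the number, age and strain of the mice and the dose of GW5074 are not given in the sources used here, and no library without bleomycin was analysed. Every comparison below is therefore between libraries, with no replicate check, and every interval is an exact 95% interval that covers counting error only. Intervals of levels and ratios take UMIs as independent, so they are too narrow where the UMIs of a gene gather in few cells.

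Type I interferons bind a receptor made of IFNAR1 and IFNAR2, and the kinases JAK1 and TYK2 on that receptor pass the signal to transcription factors that include STAT2. With IRF9, STAT2 enters a complex that binds a short repeat, the interferon-stimulated response element, in front of target genes. Among the targets are sensors of foreign nucleic acid, proteins that block viral replication, the ubiquitin-like modifier ISG15, and feedback regulators such as USP18. Myeloid cells of the airways keep a low level of many of these genes at rest.

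Many of the genes lie side by side. Of the 6 Oas and Oasl genes, all on chromosome 5, the Oas genes lie together and Oasl1 and Oasl2 lie together elsewhere on it. The 5 genes of the Ifi20x family are on chromosome 1 and the 4 Ifit genes on chromosome 19 (GENCODE M21, GRCm38). RefSeq promoters were matched for 30 of the 38 genes. The core of the response element was searched for as GAAA, any 2 bases, GAAA on either strand, overlapping matches counted, in the 250 bases before the transcription start. It was found in 16 of the 30 (53.3%) and in 936 of 27025 genes with a promoter (3.46%). The 150 bases before the start are shown for 7 genes on which the results below turn, 5′ to 3′ on the strand of the gene, with matches, read on the other strand as TTTC, any 2 bases, TTTC, in capitals. Ifit1 is chr19:34640739-34640888 (plus strand), Ifit2 chr19:34550544-34550693 (plus), Rsad2 chr12:26456453-26456602 (minus), Oas3 chr5:120777660-120777809 (minus), Oas1a chr5:120907526-120907675 (minus), Ifi211 chr1:173913047-173913196 (minus) and Bst2 chr8:71537473-71537622 (minus), all RefSeq on GRCm38.p6.
Ifit1: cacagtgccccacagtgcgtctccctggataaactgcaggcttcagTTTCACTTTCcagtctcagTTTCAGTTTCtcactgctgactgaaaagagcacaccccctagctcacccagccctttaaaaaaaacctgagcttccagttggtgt
Ifit2: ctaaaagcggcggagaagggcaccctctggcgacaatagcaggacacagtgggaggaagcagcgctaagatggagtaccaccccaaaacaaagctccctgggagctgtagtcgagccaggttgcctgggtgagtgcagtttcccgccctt
Rsad2: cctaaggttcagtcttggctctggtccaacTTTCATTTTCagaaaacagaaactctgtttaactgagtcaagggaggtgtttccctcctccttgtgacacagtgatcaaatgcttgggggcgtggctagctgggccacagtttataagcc
Oas3: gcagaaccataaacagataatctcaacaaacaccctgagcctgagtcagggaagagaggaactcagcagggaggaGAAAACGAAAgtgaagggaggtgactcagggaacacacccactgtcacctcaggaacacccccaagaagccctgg
Oas1a: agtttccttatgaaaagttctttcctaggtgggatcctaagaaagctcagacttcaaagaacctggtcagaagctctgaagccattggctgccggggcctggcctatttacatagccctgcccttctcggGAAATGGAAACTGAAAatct
Ifi211: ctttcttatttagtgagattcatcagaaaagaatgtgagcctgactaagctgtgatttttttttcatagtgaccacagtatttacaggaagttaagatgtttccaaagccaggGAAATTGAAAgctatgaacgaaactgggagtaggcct
Bst2: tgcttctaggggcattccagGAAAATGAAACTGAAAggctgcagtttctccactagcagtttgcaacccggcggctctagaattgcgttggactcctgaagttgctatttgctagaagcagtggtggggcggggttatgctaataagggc
Ifit1 held 2 matches, starting 104 and 85 bases before the start, while Ifit2, in the same group of genes, held none in this window. Oas1a and Bst2 each held a pair of overlapping matches, in Oas1a 20 and 14 bases and in Bst2 130 and 124 bases before the start. Rsad2, Oas3 and Ifi211 held 1 match each, at 120, 75 and 37 bases. A match is a description of the letters, not of binding, and no match says only that these letters are not in the window.

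The deposited files held 13504, 17809 and 11678 barcodes for WT DMSO, WT GW5074 and KO DMSO, and 39180331, 45462817 and 34859676 UMIs. After removal of barcodes with few genes or many mitochondrial UMIs, 42888 cells were kept, with median depths of 2438.5, 2276 and 2937 UMIs. Pairs of libraries shared 80 to 154 barcodes. Clec7a, the targeted gene, stood at 421 CPM (UMIs scaled to a total of 1000000) in WT DMSO, 647 in WT GW5074 and 10.7 in KO DMSO, where 371 UMIs remained. Cells were clustered with the interferon-induced genes left out, and clusters were named by markers of each cell type. The WT DMSO library stood apart in its makeup, with 3074 neutrophil-like cells against 117 and 262 in the other libraries. Unnamed clusters held 14.1%, 13.1% and 11.8% of the cells. A class or gene is called higher or lower when the ratio of 2 libraries was at least 1.5-fold and its interval excluded 1, and a gene entered the count where it reached 10 CPM in either of the 2 libraries.

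Summed over the 38 genes, the level in monocyte-derived macrophage-like cells (clusters 5 and 8) was 1595 CPM in WT DMSO, 2074 in WT GW5074 and 2098 in KO DMSO. The ratio to WT DMSO was 1.30 (interval 1.27 to 1.33) for WT GW5074 and 1.32 (1.28 to 1.35) for KO DMSO, below the 1.5-fold size. In resident alveolar macrophage-like cells the sums were 1342, 1478 and 1488 CPM, ratios of 1.10 (1.07 to 1.13) and 1.11 (1.08 to 1.14). The largest ratios were seen in conventional dendritic cell 2-like cells, at 1.69 (1.59 to 1.81) and 1.85 (1.74 to 1.98), and in neutrophil-like cells, at 1.78 (1.54 to 2.04) and 2.27 (2.08 to 2.47). In the latter the KO DMSO log2 ratio of 1.18 was 0.55 with a stricter filter on cells, below the 1.5-fold size. Conventional dendritic cell 1-like cells held 2482, 2585 and 3023 CPM, ratios of 1.04 (1.0 to 1.08) and 1.22 (1.17 to 1.26). Migratory dendritic cell-like cells gave 1.11 (1.07 to 1.14) and 1.20 (1.16 to 1.24), and T cell-like cells 1.04 (0.982 to 1.10) and 1.19 (1.13 to 1.26). Over all kept cells without classes the ratios were 1.17 (1.16 to 1.18) and 1.21 (1.19 to 1.22). There 3 of 31 genes were higher and 1 lower in WT GW5074, against 3.44% higher and 7.31% lower among all genes tested, and 6 of 31 higher and 1 lower in KO DMSO, against 4.04% and 11.4%. The gene lower in both was Slfn1, at 57.3, 17.3 and 26.9 CPM, and neutrophil-like cells, in which it led the set, were fewer in those libraries; the part of this in the result was not tested. WT GW5074 and KO DMSO were both set against the same WT DMSO library, so the 2 ratios of a class share its value.

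**Figure D1:**
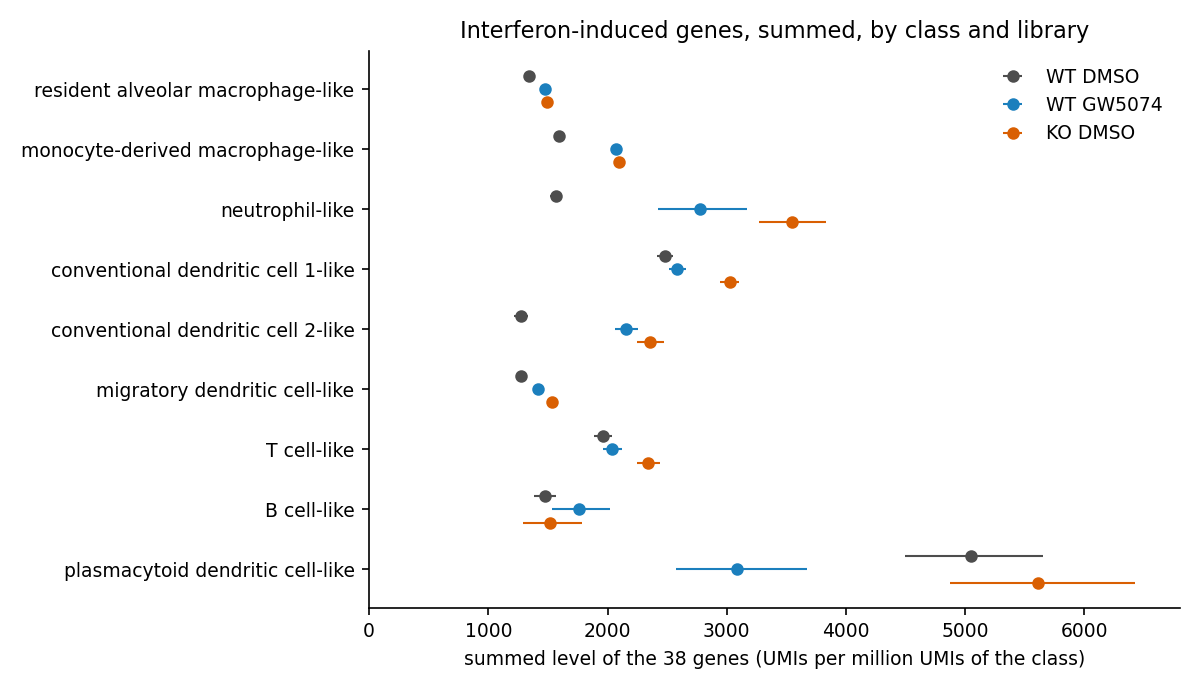
Summed level of the 38 genes (CPM within the class, horizontal axis) in each class (vertical axis) and library (colour), with exact 95% counting intervals, many narrower than the point. WT DMSO is the lowest of the 3 libraries in every class drawn except the plasmacytoid dendritic cell-like class, where WT GW5074 is lowest at 3090 CPM. In the B cell-like class the intervals of all 3 libraries overlap.

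The sum is carried by few genes. Ifi27l2a, a small interferon-induced membrane protein, gave 29.1% of the UMIs of the set in monocyte-derived macrophage-like cells and 30.4% in resident ones. Bst2 (tetherin, which holds budding virus at the cell surface) gave 15.3% and 10.4%. In other classes different genes led: Slfn1, a Schlafen gene, gave 27.0% in neutrophil-like cells, Ifi205, of the Ifi20x family of nucleic acid binding proteins, 14.4% in conventional dendritic cell 1-like cells, and Bst2 52.0% in plasmacytoid dendritic cell-like cells. Of the difference in the sum between libraries in monocyte-derived macrophage-like cells, Ifi27l2a gave 35.2% for WT GW5074 and 35.8% for KO DMSO. Because these are counts of 3′ ends, shares compare molecules counted and need no correction for length.

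In monocyte-derived macrophage-like cells the level of 37 of the 38 genes was above that of WT DMSO in WT GW5074, all but Slfn1, and 37 of 38 were above it in KO DMSO, all but Irf9. Of the 32 genes that reached 10 CPM for WT GW5074, 13 were higher and none lower, against 0.921% higher and 1.13% lower among 8252 genes tested. Of the 31 for KO DMSO, 10 were higher and none lower, against 1.75% higher and 5.20% lower among 8235 genes. The median log2 ratio was 0.48 and 0.41, beside -0.01 and -0.09 over all genes tested. Some genes reached 10 CPM only through the other library. They were Ifit1, Ifit2, Rsad2, Oas2, Oas3, Usp18 and Dhx58 in both comparisons, and Ifit3 for WT GW5074. These gave 7 of the 13 genes higher in WT GW5074 and 3 of the 10 in KO DMSO. Among the 24 at 10 CPM or more in WT DMSO itself, 6 were higher in WT GW5074 and 7 in KO DMSO. These counts depend on the clustering. With the interferon-induced genes kept in it, the log2 ratio of the sum was 0.19 and 0.27 rather than 0.38 and 0.40, and only 1 and 3 genes were higher. In cluster 5 alone 7 and 3 genes were higher.

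Of the transcription factors of the pathway in the set, Irf7 was higher in both libraries and Stat2 and Irf9 were not. Stat2 stood at 49.9 CPM in WT DMSO, 56.5 in WT GW5074 and 55.4 in KO DMSO. Its ratios of 1.13 (0.984 to 1.31) and 1.11 (0.953 to 1.29) had intervals that include 1. Irf9, its DNA-binding partner, was at 45.8, 51.5 and 42.7 CPM, and its ratio of 0.933 (0.791 to 1.10) in KO DMSO was the lowest of the tested genes there. Irf7, which amplifies interferon production, was at 12.5, 19.9 and 20.9 CPM. It was higher in both libraries, 1.59-fold (1.21 to 2.1) and 1.67-fold (1.2 to 2.24), and the intervals of its levels did not overlap that of WT DMSO.

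The Ifit genes, whose proteins bind viral RNA and hinder its translation, were low in WT DMSO and had some of the highest ratios. Ifit2 was at 5.55 CPM in WT DMSO, 15.1 in WT GW5074 and 12.1 in KO DMSO, 2.72-fold (1.85 to 4.12) and 2.18-fold (1.44 to 3.37) higher. Ifit1 was at 5.19, 10.1 and 12.1 CPM, 1.94-fold (1.28 to 3.02) and 2.33-fold (1.52 to 3.65) higher. Ifit3, at 4.47, 10.7 and 8.92 CPM, was 2.40-fold (1.55 to 3.84) higher in WT GW5074 and did not reach 10 CPM for KO DMSO. Ifit3 shares 51.2% of its 50-base stretches with Ifit3b, so the split of UMIs between them is uncertain. Rsad2 (viperin, an antiviral enzyme) was at 9.12, 21.3 and 16 CPM, 2.33-fold (1.72 to 3.22) and 1.75-fold (1.3 to 2.47) higher. In each of these genes WT DMSO was the lowest library, and each was tested only through a library in which it was higher. Most UMIs of Ifit1, Ifit2, Ifit3 and Rsad2 lay in few cells, as given below, so these intervals are too narrow.

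The Oas genes make a second messenger that activates RNase L. Oas3 was at 8.41, 15.3 and 12.2 CPM, 1.82-fold (1.32 to 2.57) higher in WT GW5074, and its ratio of 1.45 (1.01 to 2.1) in KO DMSO was below the 1.5-fold size. Oasl2, a related protein, was at 16.3, 28.1 and 31.3 CPM, 1.72-fold (1.36 to 2.20) and 1.92-fold (1.51 to 2.47) higher. Oas1a was at 11.8, 18.8 and 18.6 CPM and passed in both libraries, with ratios of 1.60 and 1.58. Oas1a shares 57.6% of its 50-base stretches with Oas1g and is uncertain in the same way. Oas2, at 8.77, 14.1 and 11.9 CPM, passed in WT GW5074 with a ratio of 1.61.

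Usp18 and Isg15 passed in WT GW5074 and not in KO DMSO, and the difference between the 2 ratios of each was not tested. Usp18, which removes ISG15 from proteins and blocks the receptor, was at 8.41, 14.9 and 10.8 CPM, ratios of 1.77 (1.28 to 2.50) and 1.29 (0.891 to 1.88). Isg15, a ubiquitin-like modifier, was at 18.1, 27.9 and 26.9 CPM, ratios of 1.54 (1.23 to 1.95) and 1.49 (1.17 to 1.90), the latter just under the size rule. Rtp4, a regulator of antiviral signalling, was at 12.3, 19.8 and 22.7 CPM and passed in both, 1.60-fold (1.22 to 2.13) and 1.84-fold (1.39 to 2.47).

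Among the Ifi20x genes Ifi211 passed in both libraries, at 13.6, 20.9 and 27.5 CPM, with ratios of 1.53 (1.18 to 2.01) and 2.02 (1.55 to 2.66). It shares 44.7% of its stretches with Ifi205. Ifi204 was at 51.5, 67.0 and 78.0 CPM and Ifi209 at 31.8, 46.2 and 56.3 CPM. Both passed in KO DMSO alone, with ratios of 1.51 (1.31 to 1.75) and 1.77 (1.48 to 2.12), beside 1.30 (1.14 to 1.49) and 1.45 (1.22 to 1.73) in WT GW5074. Ifi207 stood at 113, 118 and 149 CPM, with ratios of 1.04 (0.950 to 1.15) and 1.32 (1.20 to 1.46). The RNA sensors Ifih1 (MDA5) and Ddx58 (RIG-I) were at 28.6, 34.4 and 38 CPM and at 29.7, 38.4 and 34.8 CPM, and neither passed.

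The most abundant genes did not pass the size rule. Ifi27l2a was at 440, 608 and 620 CPM, ratios of 1.38 (1.32 to 1.45) and 1.41 (1.34 to 1.48), which exclude 1 and lie under the size rule. Bst2 was at 279, 315 and 299 CPM, ratios of 1.13 (1.07 to 1.20) and 1.07 (1.01 to 1.15), and Trim30a, a modulator of inflammatory signalling, at 113, 139 and 131 CPM. Herc6, the mouse ligase for ISG15, was at 25.6, 27.9 and 35.3 CPM, ratios of 1.09 (0.894 to 1.34) and 1.38 (1.12 to 1.70). Slfn1 was at 16.5, 12.7 and 20.4 CPM, and its 1.29-fold lower level in WT GW5074 had an interval of the ratio of 0.593 to 1.01. The ratios thus ran from 0.774 to 2.72 for WT GW5074 and from 0.933 to 2.33 for KO DMSO among the tested genes. Among tested genes with a RefSeq promoter, the repeat shown in capitals above was present in 7 of 10 genes higher in WT GW5074 and in 6 of 14 neither higher nor lower, and for KO DMSO in 4 of 8 and 8 of 15.

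**Figure D2:**
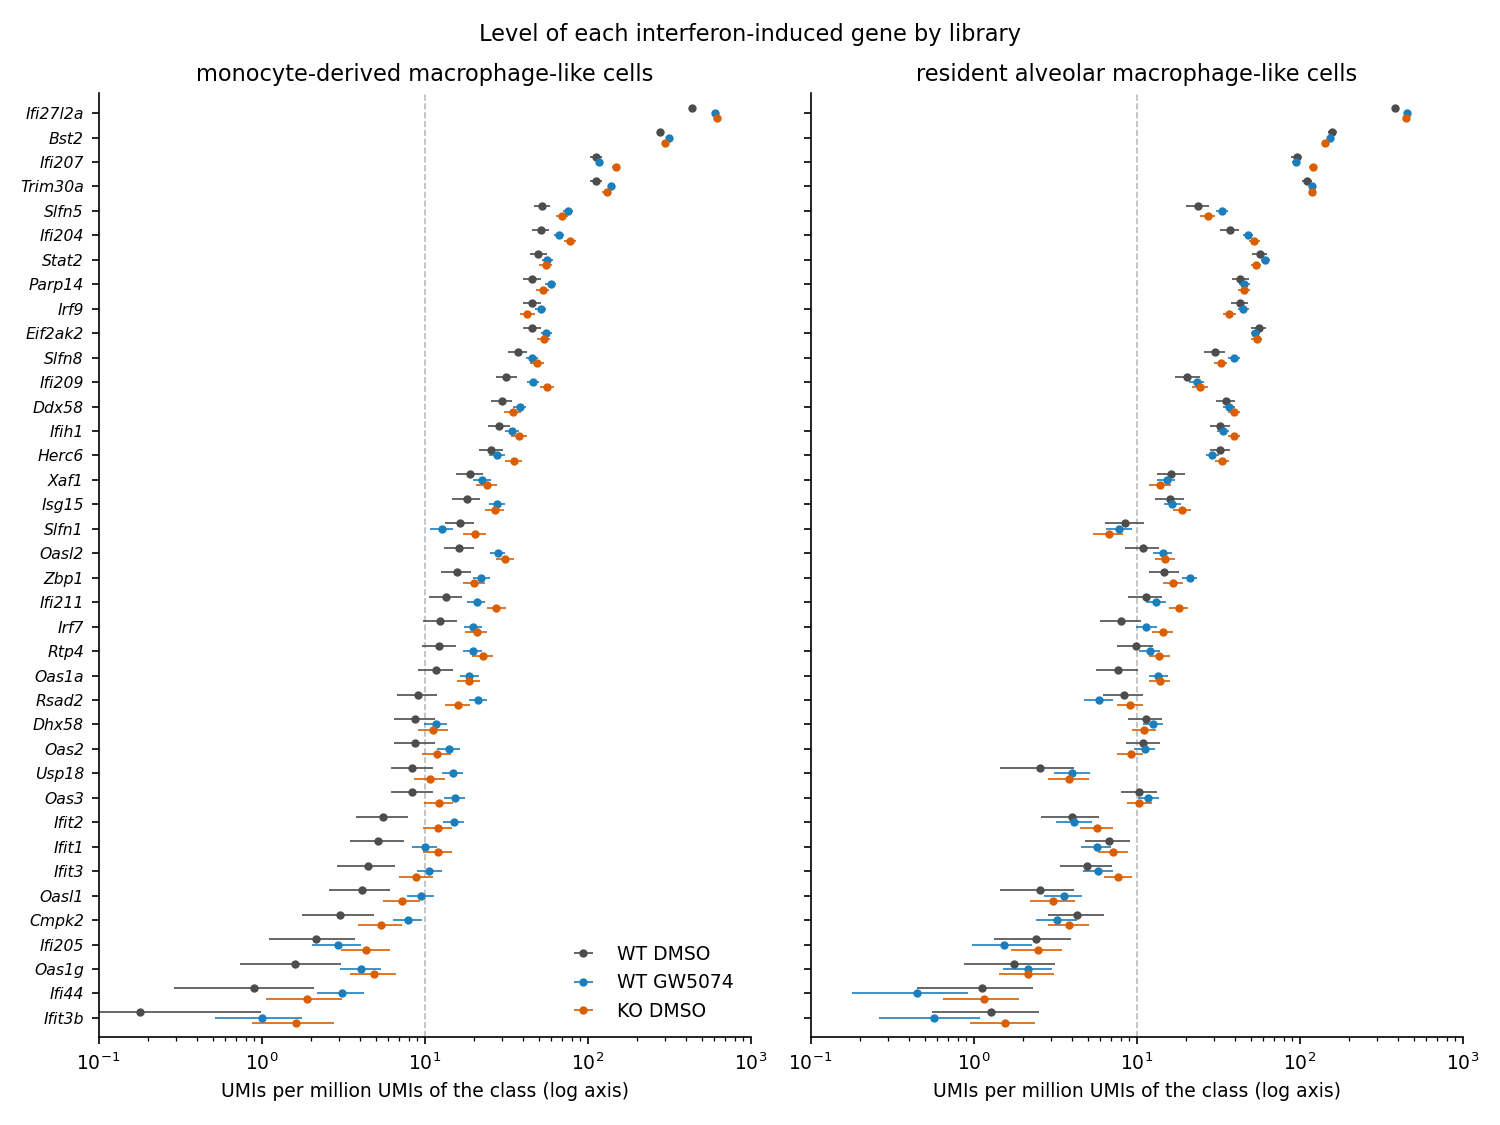
Level of each of the 38 genes (vertical axis, ordered by WT DMSO in the left panel) in CPM on a log axis, by library (colour), in monocyte-derived and in resident alveolar macrophage-like cells, with exact 95% counting intervals. The dashed line is the 10 CPM minimum, and the interval of Ifit3b in WT DMSO (1 UMI) runs past the left edge. In the left panel the orange or blue points lie right of the grey ones for genes such as Ifit2 (5.55, 15.1 and 12.1 CPM), while in the right panel the libraries lie close together.

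Markers of other cells moved with the libraries in this class. The summed neutrophil markers were at 761 CPM in WT DMSO against 281 and 261 CPM, with 8 or 9 of 10 markers detected and Ly6g at 0 in all 3 libraries. Ly6g was also at 0 in the neutrophil-like cells of KO DMSO. The monocyte-derived class's own markers summed to 14525, 17471 and 18371 CPM with 13 of 13 detected, and monocyte markers to 632, 539 and 422 CPM with 9 of 9. Median depth was 3782, 2674 and 3527.5 UMIs. The part of these in the ratios was not tested. Cluster 2 was left unnamed and outside the class because markers of both monocyte-derived macrophages and neutrophils were raised in it. It held 1199, 256 and 117 cells, beside 1298, 4061 and 2222 in the class. Its ratios were 1.51 (1.43 to 1.59) and 1.48 (1.38 to 1.58). Cluster 9, an unnamed macrophage cluster, had ratios of 1.03 (0.967 to 1.10) and 1.02 (0.958 to 1.09). With cluster 9 counted in the class the log2 ratio of the sum was 0.33 for each library. The genes Ifnar1, Ifnar2, Jak1 and Tyk2, which make the receptor and its kinases, lay close together in the 3 libraries: 34.7, 33.7 and 29.4 CPM for Ifnar1, 111, 106 and 131 CPM for Ifnar2, 181, 181 and 183 CPM for Jak1 and 41.7, 41.5 and 36.6 CPM for Tyk2.

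In resident alveolar macrophage-like cells (clusters 1, 3 and 4) the summed ratios were nearer 1. For WT GW5074, 1 of 26 tested genes was higher and none lower, against 0.708% higher and 0.600% lower among 8328 genes. For KO DMSO 3 of 26 were higher and none lower, against 2.50% higher and 4.44% lower among 8350 genes. The median log2 ratio was 0.13 and 0.17, beside -0.01 and -0.07 over all genes. Oas1a was the gene higher in WT GW5074, at 7.69, 13.6 and 13.9 CPM, 1.77-fold (1.29 to 2.48) and 1.81-fold (1.31 to 2.54). Irf7, at 8.01, 11.5 and 14.5 CPM, and Ifi211, at 11.4, 13.2 and 18.1 CPM, were higher in KO DMSO, 1.81-fold (1.32 to 2.52) and 1.59-fold (1.22 to 2.11). Oas1a and Irf7 reached 10 CPM only through the other library.

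Other resident genes stayed under the size rule. Zbp1, a sensor of Z-form nucleic acid, was at 14.7, 21.2 and 16.8 CPM and Slfn5 at 23.7, 33.5 and 27.4 CPM, with ratios of 1.44 (1.14 to 1.83) and 1.41 (1.18 to 1.71) in WT GW5074. Ifi204 was at 37.2, 48.5 and 52.7 CPM, ratios of 1.31 (1.13 to 1.52) and 1.42 (1.22 to 1.65). Oasl2 was at 10.9, 14.6 and 15 CPM and Rtp4 at 9.93, 12.1 and 13.8 CPM. At the low end were Herc6 (32.5, 29.2 and 33.5 CPM), Xaf1, a pro-apoptotic protein (16.3, 15.3 and 14.0 CPM), Eif2ak2, the kinase PKR (56.1, 53.6 and 54.6 CPM), Irf9 (42.9, 45.2 and 37.0 CPM) and Oas2 (11, 11.3 and 9.20 CPM). Rsad2, with ratios of 2.33 and 1.75 in monocyte-derived cells, was here at 8.33, 5.88 and 9.12 CPM, and Ifit1 at 6.73, 5.69 and 7.19 CPM, and neither reached 10 CPM. Ifi27l2a was at 387, 459 and 451 CPM and gave 52.8% and 43.4% of the difference in the sum. By cluster the ratios were 1.14 and 1.19 in cluster 1, 1.02 and 1.02 in cluster 3 and 1.11 and 1.17 in cluster 4. Neutrophil markers summed to 606, 315 and 350 CPM in resident cells with 9 of 10 detected and Ly6g at 0, epithelial markers to 174, 47.4 and 108 CPM with 6 of 6, and the class's own markers to 6197, 6008 and 7329 CPM with 12 of 12. Their part in the result was not tested.

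**Figure D3:**
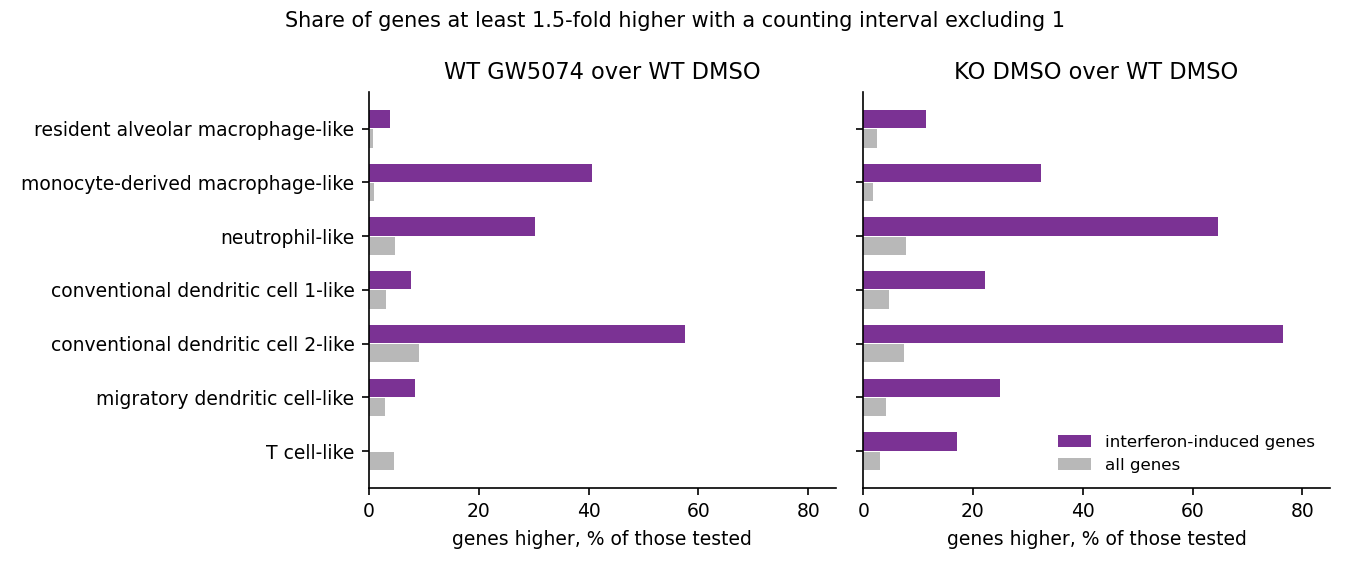
Percentage of tested genes that were at least 1.5-fold higher with an interval excluding 1 (horizontal axis), among the interferon-induced genes (purple) and all genes (grey), by class (vertical axis) and comparison (panel). The purple bar is longer than the grey one in every class and panel except T cell-like cells in WT GW5074, where 0 of 34 genes were higher. Genes that reached 10 CPM only through the other library are included, and in resident cells for WT GW5074 the bar is Oas1a alone, with 0 of the 23 genes at 10 CPM in WT DMSO higher.

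Ligands were barely detected. Over all kept cells the listed type I and III interferon genes summed to 1 UMI in WT DMSO, 4 in WT GW5074 and 2 in KO DMSO. They were 1 UMI of Ifnb1 in WT DMSO and 4 and 2 UMIs of Ifnk, and Ifng, the type II ligand, had 6, 5 and 4 UMIs. At these counts no difference between libraries was detectable.

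Genes upstream and beside the set were counted by the same rule in monocyte-derived macrophage-like cells. Among all genes tested there, 0.921% were higher and 1.13% lower in WT GW5074, and 1.75% and 5.20% in KO DMSO. Of the 17 receptor and signalling genes tested, Tlr3, an endosomal RNA sensor, was higher in WT GW5074 (7.51 to 11.5 CPM) and none was lower. In KO DMSO none was higher and Ikbke, a kinase upstream of interferon genes, was lower (51.5 to 33.9 CPM). Among other interferon-induced genes outside the set, 2 of 25 were higher in WT GW5074, Phf11b (13.1 to 20.7 CPM) and Phf11d (8.77 to 14.0 CPM). In KO DMSO 4 of 27 were higher, Phf11b at 22.7 CPM, Lgals3bp (152 to 235 CPM), Ifi203 (44.5 to 81.2 CPM) and Cxcl10 (1.07 to 11.2 CPM). Of genes tied to interferon gamma, Irgm2 was the 1 of 9 higher in WT GW5074 (6.26 to 10.1 CPM) and Gbp2 the 1 of 8 higher in KO DMSO (9.66 to 16.2 CPM). Cxcl9, a chemokine of that response, went the other way, at 20.9 CPM in WT DMSO, 3.94 in WT GW5074 and 5.03 in KO DMSO, 5.32-fold and 4.16-fold lower. Tlr3, Phf11d, Cxcl10, Irgm2 and Gbp2 reached 10 CPM only through the library in which they were higher.

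Whether the shift lay in a few cells or in all was read in cells thinned to 1000 UMIs, which left out 65, 184 and 39 shallower monocyte-derived macrophage-like cells. Cells with a UMI of at least 6 of the 38 genes made up 2.11% (26 of 1233, interval 1.38 to 3.07) in WT DMSO, 3.84% (149 of 3877, 3.26 to 4.50) in WT GW5074 and 3.57% (78 of 2183, 2.83 to 4.44) in KO DMSO. They held 13.2%, 19.2% and 19.6% of the set's UMIs. At the other end, cells with none of the genes made up 30.8%, 22.1% and 23.7%. At the upper end the interval of WT DMSO did not overlap that of WT GW5074 and did overlap that of KO DMSO. With the interferon-induced genes kept in the clustering the shares were 5.53%, 5.96% and 6.13%, close together. Without thinning the shares at or above 6 genes were 24.7%, 19.1% and 24.8%, lowest in the shallowest library. The cells over the cut had median depths of 3354, 2662 and 3474 UMIs against 3906, 2758 and 3558 for all cells of the class, and the cut of 6 genes marks a range, not a cell type.

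**Figure D4:**
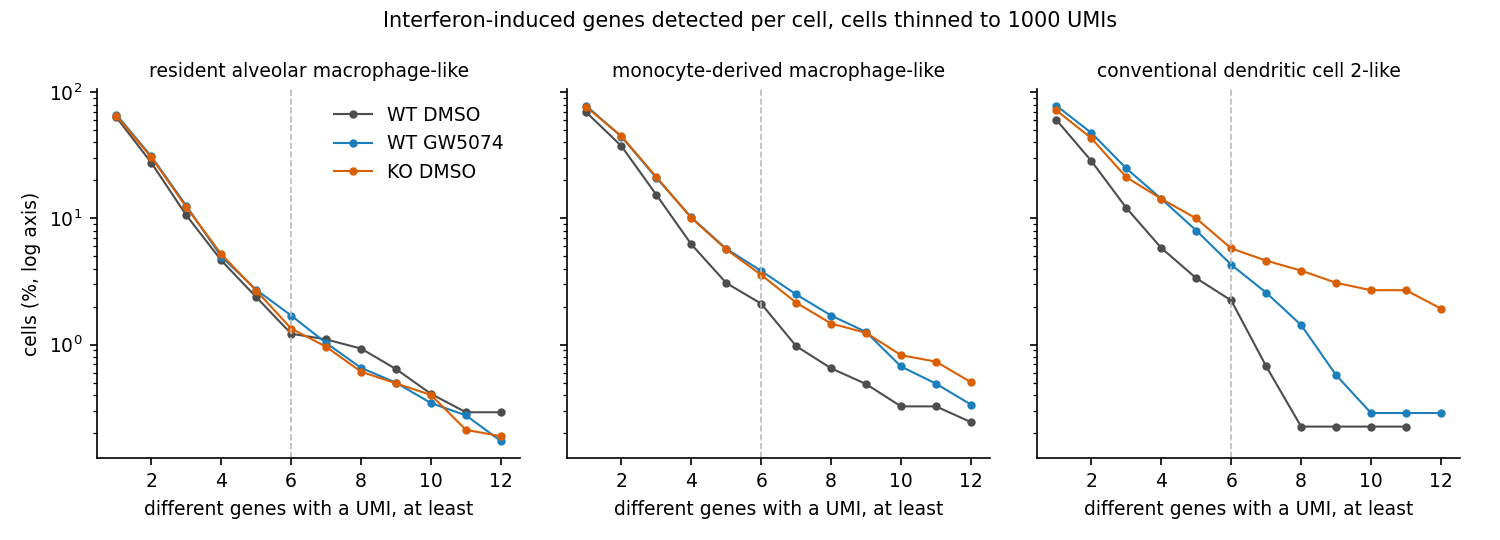
Share of cells (vertical log axis) with a UMI of at least the given number of different interferon-induced genes (horizontal axis), after thinning to 1000 UMIs, by library (colour) and class (panel). The dashed line is the cut of 6 genes. In the middle panel the WT GW5074 and KO DMSO lines run above WT DMSO (3.84% and 3.57% against 2.11% at the cut), and in the left panel the 3 lines lie close together.

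To keep the genes that order cells apart from those that are read, cells were ordered by alternate genes of the list and the remaining genes were read, then the reverse. With the odd-numbered genes ordering, cells that held none of them still had 717, 907 and 868 CPM of the genes read, ratios of 1.27 (1.20 to 1.33) and 1.21 (1.15 to 1.28). Cells below a cut of 3 ordering genes had log2 ratios of 0.37 and 0.33 and gave 61.7% and 55.4% of the difference. The cells at or above the cut were 3.16%, 5.52% and 5.63% of the class, and their own level was also above that of WT DMSO, at 2537, 3911 and 3840 CPM. They gave the other 38.3% and 44.6%. With the even-numbered genes ordering, the part below the cut was smaller. Cells that held none of the ordering genes had ratios of 1.11 (1.05 to 1.18) and 1.11 (1.04 to 1.19). They were 51.0% of the class in WT DMSO and 40.8% and 42.6% in the others, and their part of the difference was -27.8% and -12.2%, against 15.6% and 13% with the odd-numbered genes ordering. All cells below the cut had ratios of 1.11 (1.06 to 1.15) and 1.17 (1.13 to 1.22) and gave 30.6% and 46.1% of the difference, while the 4.38%, 7.25% and 6.92% of cells at or above the cut gave 69.4% and 53.9%. The shift was thus present on both sides of the cut with either ordering, and its division between them depended on which genes were read. Ifi27l2a, with 29.1% of the set's UMIs in this class, was read only with the odd-numbered genes ordering. Its part in the larger share below the cut there was not tested.

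In resident alveolar macrophage-like cells nearly the whole of the small difference lay below the cut, at 98.3% and 98.9% with the odd-numbered genes ordering and 103% and 102% with the even-numbered. Resident cells with at least 6 of the genes made up 1.22% (0.757 to 1.86), 1.70% (1.39 to 2.07) and 1.34% (1.01 to 1.73), with overlapping intervals.

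Gene by gene, each member was read with the cells ordered by the alternate genes that do not include it, at the cut of 3 ordering genes, in monocyte-derived macrophage-like cells. Ifit2 was 48.0-fold more frequent in cells over the cut than below it, and 76.5% of its UMIs lay in them. For Ifit3 this was 40.6-fold (66.8% of UMIs), for Rsad2 35.0-fold (63.4%), for Ifit1 24.6-fold (54.9%) and for Isg15 14.9-fold (50.2%). Ifi27l2a was 2.29-fold more frequent over the cut (10.2% of UMIs), Bst2 1.99-fold (11.9%) and Irf9 1.57-fold (7.20%).

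The ratio of the libraries was then taken in the cells below that cut. A gene with few of its UMIs over the cut can move little when those cells are left out, so the contrast between genes is a description. The ratio of Ifit1 in KO DMSO was 2.31 in all cells and 0.970 (0.547 to 1.74) below the cut, and that of Rsad2 was 1.81 and 0.829 (0.506 to 1.36). In WT GW5074 Rsad2 went from 2.38 to 1.23 (0.811 to 1.89), and Ifit2 from 2.71 to 1.95 (0.989 to 4.18). Ifit3 was an exception, at 2.39 and 2.53 (1.17 to 6.24). Among genes with a smaller share of UMIs over the cut, Ifi27l2a had 1.39 and 1.35 (1.29 to 1.42) in WT GW5074 and 1.41 and 1.36 (1.29 to 1.43) in KO DMSO. Irf7 had 1.59 and 1.57 (1.13 to 2.23), and 1.68 and 1.49 (1.04 to 2.16). Ifi211 in KO DMSO had 2.01 and 2.06 (1.51 to 2.85), and Rtp4 1.82 and 1.76 (1.28 to 2.45).

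**Figure D5:**
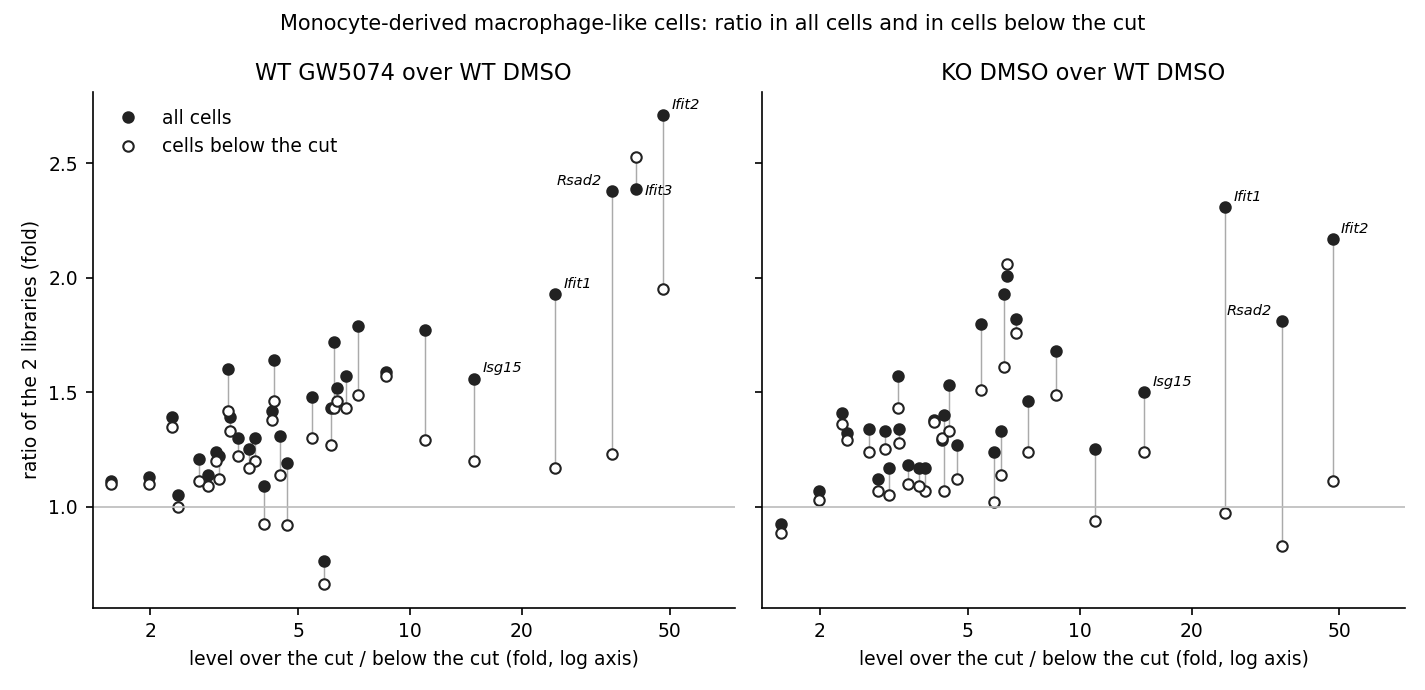
Ratio of the 2 libraries in monocyte-derived macrophage-like cells (vertical axis) for each tested gene, in all cells (filled) and in cells below the cut of 3 genes of the ordering set, which leaves out the gene plotted (open, joined by a line), against how many fold higher the gene is over the cut than below it (horizontal log axis). Genes at the right, such as Rsad2 (2.38 and 1.23 in WT GW5074), have open points well below the filled ones, except Ifit3 in the left panel, while genes at the left such as Ifi27l2a (1.39 and 1.35), with few UMIs over the cut, can move little.

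In conventional dendritic cell 2-like cells 19 of 33 tested genes were higher and 1 lower in WT GW5074, against 9.03% higher and 6.41% lower among 8939 genes. In KO DMSO 26 of 34 were higher and 1 lower, against 7.52% higher and 11.2% lower among 8852 genes. Of these, 5 of the 19 and 8 of the 26 reached 10 CPM only through the other library, Oas1a and Ifit3 among them, and of the 25 genes at 10 CPM in WT DMSO 14 and 18 were higher. Ifi27l2a was at 118, 440 and 320 CPM, 3.72-fold (3.12 to 4.46) and 2.71-fold (2.23 to 3.30) higher. Oas1a was at 5.03, 23.3 and 26.5 CPM, from 8, 20 and 20 UMIs, and Ifit3 at 2.51, 14.0 and 30.5 CPM, from 4, 12 and 23 UMIs. Isg15 stood at 19.5, 39.7 and 63.6 CPM and Irf7 at 16.3, 19.8 and 42.4 CPM, KO DMSO being the highest in each. The genes that were lower differed between the libraries: Ifi205, at 55.9, 12.8 and 50.3 CPM, was 4.36-fold lower in WT GW5074, and Stat2, at 114, 82.9 and 74.1 CPM, was 1.53-fold lower in KO DMSO. Irf9 was higher in WT GW5074 alone, at 54.0, 112 and 55.6 CPM.

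Markers of another class moved with this result. The monocyte-derived macrophage markers summed to 1199, 3277 and 3064 CPM in conventional dendritic cell 2-like cells with 13 of 13 detected in each library, the neutrophil markers to 1747, 545 and 498 CPM with Ly6g at 0, and the class's own markers to 2382, 2005 and 2177 CPM with 7 of 7 detected. Their part in the result was not tested. Median depth was 3129, 1538.5 and 2567 UMIs. With another scaling (median of ratios) 12 genes were higher in WT GW5074. With single cells gated by their markers, 7 genes were higher in WT GW5074 and 12 in KO DMSO. The log2 ratio of the sum was larger with that gate than as reported, in both libraries. The gate left 112, 104 and 81 cells, KO DMSO falling under the minimum number set for a comparison. Cells with at least 6 of the genes made up 2.24% (1.08 to 4.08), 4.30% (2.43 to 6.99) and 5.79% (3.28 to 9.37). In KO DMSO the cells at or above the cut of 3 ordering genes gave 60.8% and 80.1% of the difference. They were 22 and 28 cells, against 11 and 19 in WT DMSO. In WT GW5074 most of the difference lay below the cut, at 85.4% and 57.8%. Ifi27l2a was read only for the first value of each pair, with the odd-numbered genes ordering.

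Conventional dendritic cell 1-like cells had 2 of 26 genes higher and 1 lower in WT GW5074, against 3.05% higher and 1.71% lower among 8086 genes. In KO DMSO 6 of 27 were higher and none lower, against 4.61% higher and 9.22% lower among 7983, where Oas1a reached 10 CPM only through KO DMSO. Ifi27l2a (86.7, 157 and 134 CPM) and Xaf1 (19.3, 30.3 and 34.4 CPM) passed in both. The other genes higher in KO DMSO were Slfn1 (71.4, 86.8 and 133 CPM), Ifi211 (128, 130 and 223 CPM), Ifi207 (143, 171 and 246 CPM) and Oas1a (2.70, 5.14 and 11.8 CPM). Ifit2, higher in both libraries in monocyte-derived cells, was here 1.87-fold lower in WT GW5074 (21.1, 11.3 and 26.7 CPM). Neutrophil markers summed to 875, 165 and 133 CPM in this class with 6 to 9 of 10 detected and Ly6g at 0, and monocyte-derived macrophage markers to 175, 491 and 291 CPM with 12 or 13 of 13 detected. Their part in the result was not tested.

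Neutrophil-like cells gave 10 of 33 genes higher and none lower in WT GW5074, against 4.66% higher and 2.65% lower among 9525 genes. In KO DMSO 22 of 34 were higher and none lower, against 7.71% higher and 6.89% lower among 9081. Of the 26 genes at 10 CPM in WT DMSO itself, 8 and 17 were higher, and the others, such as Ifit3, reached it only through the other library. Rsad2 was at 28.2, 152 and 204 CPM, Isg15 at 34.1, 114 and 181 CPM and Ifit3 at 7.99, 63.5 and 96.1 CPM, while Slfn1, the most abundant over the 3 libraries together, was at 459, 317 and 656 CPM. The 2 smaller libraries rest on 117 and 262 cells of a median 571 and 600.5 UMIs, so that the 152 CPM of Rsad2 are 12 UMIs. Resident macrophage markers summed to 6643 CPM in WT DMSO and to 749 and 752 CPM. The class's own markers summed to 59551, 38327 and 37332 CPM, with 9 of 10 detected in KO DMSO, where Ly6g was at 0. The part of these markers in the result was not tested. Only 14 cells in each of the smaller libraries reached 1000 UMIs, too few to divide at the cut.

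Migratory dendritic cell-like cells had 2 of 24 genes higher and 1 lower in WT GW5074, against 2.83% higher and 6.84% lower among 7856 genes. In KO DMSO 6 of 24 were higher and 1 lower, against 4.07% higher and 18.6% lower among 7820. Of the 22 genes at 10 CPM in WT DMSO itself, 1 and 4 were higher, and Ddx58 was not among these 22. Ifi27l2a (75.1, 128 and 132 CPM) and Ddx58 (8.24, 14.5 and 13.3 CPM) passed in both, and Slfn1 (18.4, 9.37 and 7.71 CPM) was lower in both. Cluster 12 held 43.8% of this class in WT DMSO and 1.55% and 0.631% in the others. Its level was 968, 1059 and 1080 CPM. Without cluster 12 the log2 ratio of the sum was -0.09 for WT GW5074 and 0.02 for KO DMSO, in place of 0.15 and 0.26. Neutrophil markers summed to 1536, 143 and 77.6 CPM in this class with 8 to 10 of 10 detected, and their part was not tested.

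T cell-like cells were the class in which no gene was higher in WT GW5074. There 0 of 34 were higher, against 4.56% of 9198 genes, and 3 were lower, Ifit3 (18.4, 7.30 and 12 CPM), Ifi205 (19.9, 8.11 and 19.0 CPM) and Herc6 (73.8, 39.8 and 60.1 CPM), against 5.43%. In KO DMSO 6 of 35 were higher and 2 lower, against 3.03% higher and 10.4% lower among 9204 genes. Higher were Oas1a, Oas2, Zbp1, Ifi207, Ifi27l2a (506, 663 and 777 CPM) and Ifi204 (22.1, 29.2 and 45.1 CPM), and Rsad2 (19.9, 15.4 and 9.02 CPM) and Slfn5 (76.7, 63.3 and 47.1 CPM) were lower. The class's own markers summed to 2124, 1677 and 2581 CPM with 10 of 10 detected. Monocyte-derived macrophage markers summed to more, 4271, 7530 and 7909 CPM in these cells with 13 of 13 detected. Neutrophil markers summed to 3127, 507 and 267 CPM with 8 or 9 of 10 and Ly6g at 0. The part of these markers was not tested. The KO DMSO log2 ratio of the sum, 0.25, was smaller at Leiden resolution 2, with single cells gated by their markers and without Ifi27l2a.

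Plasmacytoid dendritic cell-like and B cell-like cells were too few to compare. The former, 28, 25 and 17 cells, had the highest sum of any class in each library, at 5049, 3090 and 5608 CPM. Bst2, also a surface marker of these cells in mice, stood at 2626, 1738 and 2764 CPM there. The B cell-like cells held 1473, 1763 and 1520 CPM.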

How the data were processed

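UMI counts per gene and cell barcode were deposited by the authors for 3 libraries. Cell Ranger 2.1.1 and mm10 are named in the submitters' processing notes. The labels name SeekOne in the protocol and 10x Genomics elsewhere, and the platform was not settled. The lowest total of a deposited barcode was 500 UMIs in each library.

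Barcodes with under 200 genes or over 20% mitochondrial UMIs were left out. Scrublet, within scanpy 1.11.5 (Python 3.11.15), called 0 of 42888 cells doublets, so none was removed. This does not show that doublets were absent. Its scores were used in naming clusters and in an alternative. Counts were scaled to 10000 per cell and logged. The 2000 variable genes, without the 38 genes and other interferon-induced genes, were each centred, divided by their standard deviation and capped at 10. Cells were clustered on these (30 components, 15 neighbours, Leiden resolution 1, igraph 0.11.9). A cluster was named from at least 3 markers, and at least 25% of a list, that stood 2-fold above the median cluster at 20 CPM in 10% of cells, with a median doublet score under 0.1. Clusters with raised markers of 2 classes, or with cycling genes raised, were left unnamed. These naming thresholds were set after seeing the data. Classes under 100 cells in a library were not compared.

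UMIs were summed per class and library. With 1 library per group there is no test, and intervals are exact at 95% (scipy 1.17.1). Cells were thinned to 1000 UMIs for shares. Any member could be named; full values went to the 5 with most UMIs and, in each macrophage class and comparison, to the 5 highest and 3 lowest ratios among genes with 10 CPM in 1 library and 30 UMIs. Members described in other classes were chosen after their values were seen. The members and gene lists were chosen with earlier results of these data known. Positions are from GENCODE M21 and promoters from RefSeq. The counting code was tested on simulated data. Alternatives covered filters, clustering, gating, scaling, thinning, cuts and single genes or clusters left out.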

Additional observations from a re-analysis of the deposited data

How the results depend on the processing

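No paired analysis was possible because each group is 1 library. No library could be left out, since a group would be empty. In the values below, the first is as reported and those after it are the alternatives that moved it beyond its counting interval, or a count beyond 1.5 times. The cause was not tested. The stricter filter left out cells under 500 genes or over 10% mitochondrial UMIs, centring set each gene to the same mean in each library before clustering, the gate assigned single cells by their markers, and the genes kept in are the interferon-induced genes during clustering, and cells below the cut are those under 6 genes, a cut made with the same genes. The smaller fold lies between 1 and the 1.5-fold size. The alternatives that leave out Ifi27l2a or cluster 12, take cluster 5 or 8 alone or add cluster 9 were chosen after seeing the data. In resident macrophage-like cells the log2 ratio of the summed level was 0.14 for WT GW5074, and 0.08 at resolution 2, 0.07 with centring, 0.05 with the gate, 0.23 over all kept cells and 0.09 without Ifi27l2a. KO DMSO gave 0.15, and 0.08 with centring and with the gate, 0.27 over all kept cells and 0.22 by median of ratios. In resident macrophage-like cells the count of genes higher was 1 for WT GW5074, and 2 at resolution 0.5, 3 over all kept cells and below the cut, 7 at the smaller fold and 0 at 2-fold. The value for KO DMSO was 3, and 1 at resolution 2 and with centring, 0 with the gate and at 2-fold, 6 over all kept cells and 7 at the smaller fold. In resident macrophage-like cells the percentage of cells with at least 6 genes was 1.22 for WT DMSO, and 0.207 with the genes kept in, 2.34 with centring, 1.97 over all kept cells, 0.358 at 500 UMIs, 3.45 at 2000 UMIs, 4.65 for 4 genes, 0.407 for 10 genes and 10.6 unthinned. In WT GW5074 it stood at 1.70, and 0.690 with the genes kept in, 1.31 with the gate, 2.59 over all kept cells, 0.353 at 500 UMIs, 5.23 at 2000 UMIs, 4.99 for 4 genes, 0.344 for 10 genes and 8.34 unthinned. For KO DMSO it was 1.34, and 0.484 with the genes kept in, 2.72 over all kept cells, 0.413 at 500 UMIs, 4.61 at 2000 UMIs, 5.21 for 4 genes, 0.399 for 10 genes and 10.0 unthinned. In monocyte-derived macrophage-like cells the log2 ratio of the summed level was 0.38 for WT GW5074, and 0.29 with the stricter filter, 0.19 with the genes kept in, 0.34 at resolution 2 and without Ifi27l2a, 0.47 with centring, 0.31 with the gate, 0.23 over all kept cells, 0.30 as a mean over cells, 0.27 below the cut, 0.32 in cluster 5, 0.46 in cluster 8 and 0.33 with cluster 9. KO DMSO gave 0.40, and 0.31 with the stricter filter and with the gate, 0.27 with the genes kept in and over all kept cells, 0.33 at resolution 2 and with cluster 9, 0.46 with centring and without the top 3 genes, 0.49 by median of ratios, 0.35 as a mean over cells, 0.28 below the cut, 0.36 without Ifi27l2a and 0.45 in cluster 8. In monocyte-derived macrophage-like cells the count of genes higher was 13 for WT GW5074, and 8 with the stricter filter and with cluster 9, 1 with the genes kept in, 3 over all kept cells and at 2-fold, 20 at the smaller fold, 0 below the cut and 7 in cluster 5. The value for KO DMSO was 10, and 3 with the genes kept in and at 2-fold and in cluster 5, 6 over all kept cells, 18 at the smaller fold and 4 below the cut. In monocyte-derived macrophage-like cells the percentage of cells with at least 6 genes was 2.11 for WT DMSO, and 5.53 with the genes kept in, 1.37 with centring, 0.616 at 500 UMIs, 6.53 at 2000 UMIs, 6.24 for 4 genes, 0.324 for 10 genes and 24.7 unthinned. In WT GW5074 it stood at 3.84, and 5.96 with the genes kept in, 2.59 over all kept cells, 1.03 at 500 UMIs, 10.2 at 2000 UMIs and for 4 genes, 0.671 for 10 genes and 19.1 unthinned. For KO DMSO it was 3.57, and 6.13 with the genes kept in, 2.72 over all kept cells, 1.08 at 500 UMIs, 11.1 at 2000 UMIs, 10.1 for 4 genes, 0.825 for 10 genes, 24.8 unthinned and 4.72 in cluster 8. In conventional dendritic cell 2-like cells the log2 ratio of the summed level was 0.76 for WT GW5074, and 0.88 with the gate, 0.23 over all kept cells, 0.65 by median of ratios, 0.56 without the top 3 genes and 0.57 without Ifi27l2a. KO DMSO gave 0.89, and 0.70 with the genes kept in, 1.08 with the gate, 1.02 without high doublet scores, 0.27 over all kept cells and 0.49 below the cut. In conventional dendritic cell 2-like cells the count of genes higher was 19 for WT GW5074, and 7 with the gate, 3 over all kept cells, 12 by median of ratios and 10 at 2-fold. The value for KO DMSO was 26, and 16 with the genes kept in, 12 with the gate, 6 over all kept cells and 13 below the cut. With the gate KO DMSO held 81 cells of this class, under the minimum number set for a comparison. In conventional dendritic cell 2-like cells the percentage of cells with at least 6 genes was 2.24 for WT DMSO, and 0.425 at 500 UMIs, 6.20 at 2000 UMIs, 5.83 for 4 genes, 0.224 for 10 genes and 16.6 unthinned. In WT GW5074 it stood at 4.30, and 0.461 at 500 UMIs, 12.8 at 2000 UMIs, 14.3 for 4 genes, 0.287 for 10 genes and 17.5 unthinned. For KO DMSO it was 5.79, and 2.72 over all kept cells, 3.24 at 500 UMIs, 15.8 at 2000 UMIs, 14.3 for 4 genes, 2.70 for 10 genes and 23.4 unthinned. In migratory dendritic cell-like cells the log2 ratio of the summed level was 0.15 for WT GW5074, and 0.20 with the genes kept in, 0.23 over all kept cells, 0.10 without Ifi27l2a and -0.09 without cluster 12. KO DMSO gave 0.26, and 0.36 with the genes kept in, 0.39 by median of ratios, 0.32 as a mean over cells, 0.21 without the top 3 genes and 0.02 without cluster 12. In migratory dendritic cell-like cells the count of genes higher was 2 for WT GW5074, and 5 with the genes kept in, 4 at the smaller fold, 0 at 2-fold, 6 with no minimum CPM and 1 without cluster 12. The value for KO DMSO was 6, and 10 with the genes kept in and at the smaller fold, 0 at 2-fold, 11 with no minimum CPM, 2 below the cut and 3 without cluster 12. In neutrophil-like cells the log2 ratio of the summed level was 0.83 for WT GW5074, and 0.23 over all kept cells and 0.33 below the cut. In KO DMSO it stood at 1.18, and 0.55 with the stricter filter, 0.81 with the gate, 0.27 over all kept cells, 0.99 by median of ratios and -0.26 below the cut. The stricter filter left 14 neutrophil-like cells in WT GW5074 and 56 in KO DMSO, under the minimum number set for a comparison. In conventional dendritic cell 1-like cells the log2 ratio of the summed level was 0.06 for WT GW5074, and 0.23 over all kept cells, -0.04 as a mean over cells and 0.20 below the cut. For KO DMSO it was 0.28, and 0.18 as a mean over cells. In T cell-like cells the log2 ratio of the summed level was 0.05 for WT GW5074, and -0.07 without high doublet scores, 0.23 over all kept cells, -0.12 without the top 3 genes, 0.22 below the cut and -0.08 without Ifi27l2a. KO DMSO gave 0.25, and 0.04 at resolution 2, 0.06 with the gate, 0.16 as a mean over cells, 0.11 without the top 3 genes, 0.38 below the cut and 0.10 without Ifi27l2a. The summed level changed sign 3 times, in migratory dendritic cell-like cells without cluster 12, in neutrophil-like cells below the cut and in conventional dendritic cell 1-like cells as a mean over cells. Of the neutrophil-like cells in KO DMSO, 14 reached 1000 UMIs. The 1 of these at or above the cut held 54.1% of the set's thinned UMIs. In T cell-like cells the WT GW5074 ratio, whose interval included 1, was also below 0 on the log2 scale in 3 alternatives. In all, 115 values of the summed level, 68 of the counts and 65 of the percentages did not move. Median-of-ratios scaling shifted the log2 ratio of all genes by more than 0.1 in neutrophil-like (-0.20 and -0.19), conventional dendritic cell 2-like (-0.11 for WT GW5074) and migratory dendritic cell-like cells (0.13 for KO DMSO). Depth limits genes of a few UMIs, such as Ifit3b with 1 UMI in WT DMSO monocyte-derived macrophage-like cells.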
